A study of Mus musculus with 9 samples.

Results

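The PPAR, ERR and PGC-1 regulators were followed here as 10 genes, taken by symbol from the deposited expression table: *Ppara*, *Ppard*, *Pparg*, *Ppargc1a*, *Ppargc1b*, *Esrra*, *Esrrb*, *Esrrg*, *Rxra* and *Rxrg*. All 10 were found among the 48820 genes of the table. They were also among the 13618 genes tested, whose mean level reached 1 FPKM. Whole hearts of C57BL/6J mice were sequenced at embryonic day 18.5 (E18.5d), postnatal day 1 (P1d) and postnatal day 7 (P7d), with 3 hearts labelled as biological replicates at each stage. Every mouse was WT and received no treatment, so the stages differ by age alone as labelled, and no altered allele is involved. All hearts were labelled male. Values are FPKM, fragments per kilobase of gene and per 1e6 fragments, so that levels of different genes can be set side by side. Changes are given on the log2(FPKM + 1) scale, which understates the change of genes near or below 1 FPKM.

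PPARs, retinoid X receptors (RXRs) and oestrogen-related receptors (ERRs) are nuclear receptors, transcription factors that bind short DNA elements. A PPAR binds DNA together with an RXR and is activated by fatty acids and their derivatives. ERRs are orphan receptors that need no known hormone, and depend on coactivators of the PGC-1 family. In heart muscle the PPARs are known for the control of fatty acid uptake and oxidation genes, and the ERRs with PGC-1 for the control of mitochondrial energy genes.

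Windows of 250 bases before the annotated starts of these genes were read from RefSeq (GRCm38.p6), 17 windows for 9 of the 10 genes. The motifs searched on both strands were AAGGTCA (an ERR half-site), TCAAGGTCA (a longer ERR element that contains it), the DR1 element (a repeat of AGGTCA with 1 base between the copies, bound by PPAR with RXR), TGACGTCA (the cyclic AMP response element) and the NRF1 site. Of the 17 windows, 3 held a motif. AAGGTCA lay before the second annotated start of *Rxra* and of *Rxrg*, and an NRF1 site lay before *Ppara*. Over all 32851 windows of the same length, AAGGTCA was found in 4.08% and the NRF1 site in 0.782%. TGACGTCA was found in 1.55% of all windows, TCAAGGTCA in 0.387% and the DR1 element in 0.0335%. A match describes the letters of a window and is not a binding site, and a window without a match says nothing of the factor. The windows before both *Rxrg* starts are shown because this gene had the largest change between stages among the 10, and the *Rxra* window because it holds the same motif. In capitals is AAGGTCA, which began 89 bases before the *Rxrg* start and 49 bases before the *Rxra* start. The *Rxrg* windows are chr1:167598112-167598361 and chr1:167618015-167618264, and the *Rxra* window is chr2:27709042-27709291, all on the plus strand.
Rxrg first start: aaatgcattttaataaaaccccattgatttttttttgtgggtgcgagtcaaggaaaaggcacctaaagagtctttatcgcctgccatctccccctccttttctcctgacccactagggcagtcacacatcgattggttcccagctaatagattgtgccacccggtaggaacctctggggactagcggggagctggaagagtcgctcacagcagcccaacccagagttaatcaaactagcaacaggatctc
Rxrg second start: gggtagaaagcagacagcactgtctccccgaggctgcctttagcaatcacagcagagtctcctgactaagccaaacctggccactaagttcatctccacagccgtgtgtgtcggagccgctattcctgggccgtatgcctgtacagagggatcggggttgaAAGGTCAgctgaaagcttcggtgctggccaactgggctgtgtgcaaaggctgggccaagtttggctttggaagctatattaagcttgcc
Rxra second start: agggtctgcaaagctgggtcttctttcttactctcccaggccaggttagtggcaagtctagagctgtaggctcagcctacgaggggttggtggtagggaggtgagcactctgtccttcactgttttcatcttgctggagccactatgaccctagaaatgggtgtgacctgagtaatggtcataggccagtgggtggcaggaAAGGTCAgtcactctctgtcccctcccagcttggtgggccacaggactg

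The depth, estimated from the steps between low FPKM values, was 25.5 to 45.25 times 1e6 fragments per heart, and the P7d hearts (36 to 45.25) were on average the deepest. Cardiomyocyte markers were abundant in every heart, but their summed level over 6 genes shifted between stages without overlap. It was 12740.4 to 13019.5 FPKM in E18.5d hearts, 17419 to 18626 FPKM in P1d hearts and 16202 to 16881 FPKM in P7d hearts. The 6 genes did not move together. From E18.5d to P7d *Myh6* rose from 3189 to 3260 FPKM to 7980 to 8564 FPKM, and *Tnni3*, *Actn2* and *Ryr2* were also higher. *Tnnt2* fell from 4278 to 4510 FPKM to 2778 to 3198 FPKM, and *Nppa* from 1958 to 2204 FPKM to 1032 to 1076 FPKM. From E18.5d to P7d the sum of 4 endothelial genes went from 270.0 to 303 FPKM to 374 to 391 FPKM. That of 4 fibroblast genes went from 489 to 499 FPKM to 643 to 656 FPKM. Not all genes of these lists rose. The endothelial *Tek* overlapped between E18.5d and P7d hearts (37.6 to 40.36 and 38.54 to 40.07 FPKM). So did the fibroblast genes *Pdgfra* (26.59 to 28.86 and 27.15 to 27.78 FPKM) and *Tcf21* (24.47 to 27.29 and 22.83 to 26.24 FPKM). The other genes of both lists were higher at P7d without overlap. The sum of 4 erythroid genes was 5206 to 6781 FPKM in P7d hearts, below the P1d hearts (7872 to 15398 FPKM), while the E18.5d hearts (5227 to 13710.1 FPKM) overlapped both. The part of these shifts in the changes given here was not tested. *Xist*, the RNA of the inactive X chromosome, stood at 58.0 to 97.0 FPKM in E18.5d replicates 1 and 3 and in P7d replicates 2 and 3, and did not exceed 0.11 FPKM elsewhere. Those 4 hearts had 0 FPKM of the 4 Y-linked genes examined, each of which reached 9.74 FPKM or more in every remaining heart, so that the labels of 4 hearts are not borne out. None of the 4 was a P1d heart, so *Xist* status is partly confounded with stage. The fit was therefore repeated without these 4 hearts, with 1 E18.5d, 3 P1d and 1 P7d heart. In this fit the lone hearts are assumed to vary like the P1d hearts. In whole hearts, fewer cells of a type and less RNA per cell cannot be told apart.

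Several patterns were seen among the 10 genes. *Rxrg* was at 0.47 FPKM or less before birth and 21.4-fold higher at P7d. *Ppargc1a*, *Pparg* and *Rxra* were highest at P1d, where *Ppara* was lowest. *Ppargc1b*, *Esrra* and *Esrrb* were modestly higher at P7d than at E18.5d, whereas *Esrrg* passed the test in no comparison. At P7d against E18.5d, 4 of the 10 genes rose and 0 fell (limma, adjusted p below 0.05), and 49.4% of all genes tested were called in this comparison, 12.5% as higher and 36.9% as lower. At P1d against E18.5d, 5 rose and 1 fell, beside 46% of all genes (18.4% higher and 27.6% lower). At P7d against P1d, 4 rose and 3 fell, beside 44.2% of all genes (15.5% higher and 28.6% lower). Counted in either direction, the first count is near the share over all genes and the others are above it. By direction, all 4 called at P7d against E18.5d were higher, whereas more of all genes were called lower. Under median-of-ratios scaling more of all genes were higher there (3159 higher and 2545 lower). With 10 genes no test of this was made. Hearts of the 2 stages did not overlap for 5, 6 and 7 of the 10 genes in these comparisons, beside 62.5%, 54.4% and 53.6% of all genes. The comparisons share hearts in pairs. *Rxrg* reached the mean of 1 FPKM required for testing only through its P7d hearts, so its P7d values describe a gene that the filter kept because it was high there. Without it 3 of 9 genes rose and 0 fell at P7d against E18.5d, 4 rose and 1 fell at P1d against E18.5d, and 3 rose and 3 fell at P7d against P1d. The median log2 change over all genes tested was -0.17 at P7d against E18.5d, and 0.0078 under median-of-ratios scaling.

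**Figure D1:**
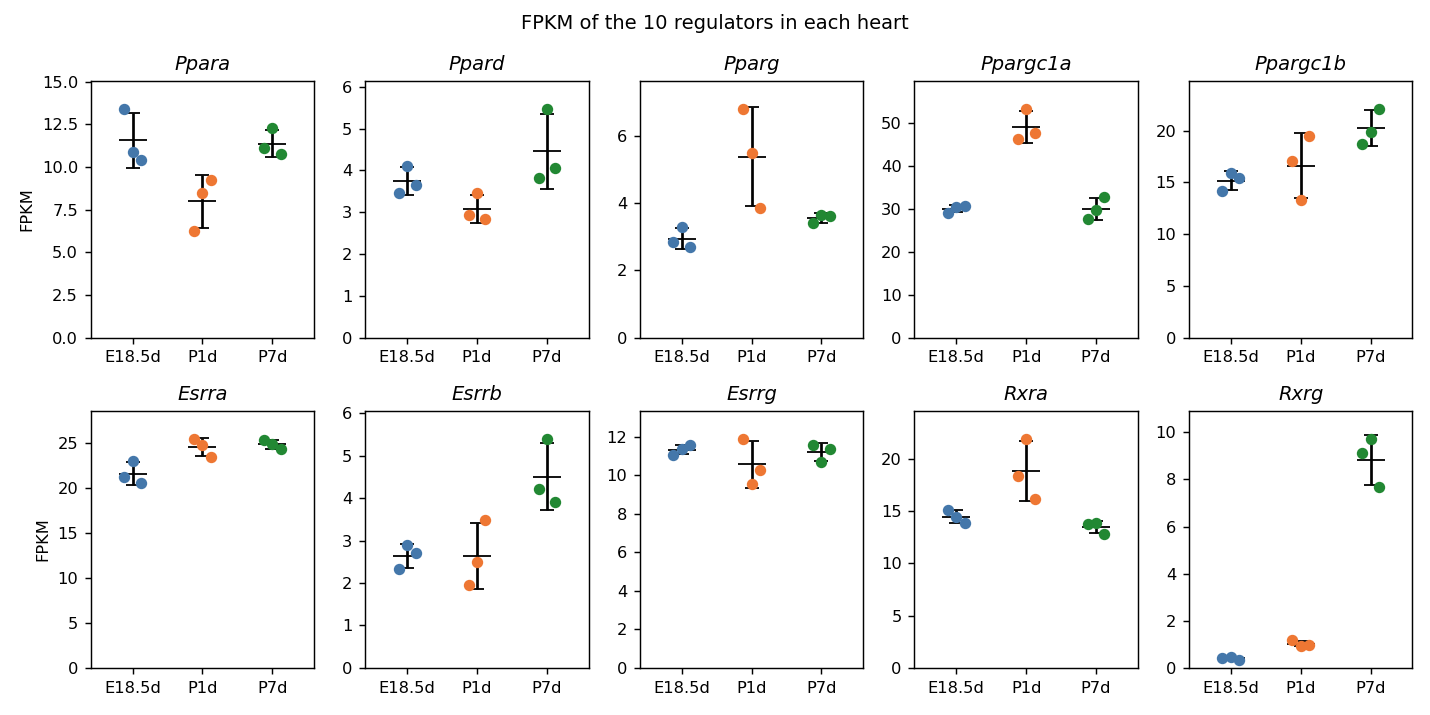
FPKM (y axis, from 0, a scale for each gene) of the 10 regulators at each stage (x axis). Points are single hearts, and bars give the mean ± SD of 3 hearts. *Rxrg* climbs from 0.34 to 0.47 FPKM at E18.5d to 7.66 to 9.73 FPKM at P7d, and the 3 P1d hearts stand above all others for *Ppargc1a*.

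*Ppara* (chr15:85734983-85802819, plus strand, GRCm38) encodes PPARα, the main PPAR of heart muscle. It stood at 13.4, 10.9 and 10.4 FPKM in the E18.5d hearts, at 6.22, 8.49 and 9.24 FPKM in the P1d hearts and at 11.1, 12.3 and 10.7 FPKM in the P7d hearts. The 3 P1d hearts were the lowest of the 9, and E18.5d and P7d hearts overlapped. *Ppara* fell by 0.49 ± 0.14 (SE, n = 3 per stage, as for all changes below) from E18.5d to P1d (adjusted p = 0.0154), 31.0% lower in mean FPKM. From P1d to P7d it rose by 0.47 ± 0.14 (adjusted p = 0.0191). Between E18.5d and P7d the change was -0.017 ± 0.14 (adjusted p = 0.930), which turned to 0.18 under median-of-ratios scaling. The fall to P1d lost its call without E18.5d replicate 1 (adjusted p = 0.0573), the highest heart. The rise to P7d lost it without P1d replicate 1, at 0.33, with an adjusted p just above the threshold, and without P7d replicate 2 (adjusted p = 0.0676). With *Xist* as a covariate neither passed (adjusted p = 0.0849 and 0.101). Without the 4 hearts with *Xist* the changes were -0.42 and 0.45, neither past the threshold (adjusted p = 0.289 and 0.287).

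*Ppard* (chr17:28232700-28301474, plus strand) encodes PPARδ, a widely expressed member that also acts on fatty acid oxidation genes. Its levels were 3.45, 4.11 and 3.66 FPKM in E18.5d hearts, 2.93, 3.47 and 2.84 FPKM in P1d hearts and 3.83, 5.48 and 4.06 FPKM in P7d hearts. All P7d hearts lay above all P1d hearts, while the E18.5d hearts overlapped both. The rise from P1d to P7d was 0.41 ± 0.12 (adjusted p = 0.0237), and it was lost in 5 of 18 alternatives, among them without P7d replicate 2, the highest heart, at 0.28 (adjusted p = 0.0758). P7d against E18.5d gave 0.19 ± 0.12 and P1d against E18.5d -0.22 ± 0.12, neither past the threshold. With only the 5 hearts lacking *Xist*, P7d against P1d gave 0.25 (adjusted p = 0.404).

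*Pparg* (chr6:115360951-115490399, plus strand) encodes PPARγ, the regulator of fat cell formation, which is low in heart muscle. The E18.5d hearts held 2.84, 3.29 and 2.69 FPKM, the P1d hearts 6.81, 5.49 and 3.85 FPKM, and the P7d hearts 3.40, 3.66 and 3.63 FPKM. The P1d hearts were the highest 3 but spread widely, and the P7d hearts lay between the other stages without overlap. *Pparg* rose by 0.67 ± 0.15 from E18.5d to P1d, 1.83-fold in mean FPKM (adjusted p = 0.00602), a call kept in every other setting tried with all hearts or without 1 of them, where the gene was tested. It fell by 0.46 ± 0.15 from P1d to P7d (adjusted p = 0.0360), and this call was lost in 10 of 18 alternatives, with 0.30 in place of 0.46 when P1d replicate 1 was left out (adjusted p = 0.114). Leaving out the hearts with *Xist*, the rise was 0.55 (adjusted p = 0.273).

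The summed level of 6 adipocyte genes was 0 to 0.59 FPKM in E18.5d hearts, 4.32 to 5.41 FPKM in P1d hearts and 3.06 to 3.24 FPKM in P7d hearts. *Adipoq*, the adiponectin gene, was at 1.91 to 3.09 FPKM at P1d, against at most 0.42 FPKM at E18.5d and 0.86 to 1.01 FPKM at P7d. *Plin1*, a lipid droplet coat protein of fat cells, did not share this course, with at most 0.19 FPKM at E18.5d, 0.28 to 1.38 FPKM at P1d and 1.31 to 1.42 FPKM at P7d. *Lep*, the leptin gene, stayed at 0.05 FPKM or less in every heart. The 4 brown fat genes summed to 6.88 to 8.60, 22.8 to 23.9 and 32.6 to 37.8 FPKM, of which *Cidea* made most. *Ucp1*, the defining brown fat gene, was at 0 in the E18.5d hearts, at up to 1.31 FPKM at P1d and at 5.77 to 7.26 FPKM at P7d. *Elovl3* was at 0 in all but 1 heart. *Dio2* did not share the course of the sum, with 0.83 to 1.32 FPKM at E18.5d, 0.40 to 0.93 FPKM at P1d and 1.14 to 1.51 FPKM at P7d. The part of fat cells in the change of *Pparg* was not tested.

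*Ppargc1a* (chr5:51454250-51567726, minus strand) encodes PGC-1α, the coactivator of PPARs and ERRs best known for driving mitochondrial genes. It was the most abundant of the 10 at every stage. Its levels were 29.1, 30.3 and 30.6 FPKM in E18.5d hearts, 46.3, 53.3 and 47.7 FPKM in P1d hearts and 27.6, 29.7 and 32.7 FPKM in P7d hearts. Every P1d heart was above every other heart, and E18.5d and P7d hearts overlapped. It rose 1.64-fold from E18.5d to P1d, by 0.69 ± 0.076 (adjusted p = 0.000108). By P7d it had fallen by 0.69 ± 0.076 (adjusted p = 0.00014). The net change from E18.5d to P7d was -0.0018 ± 0.076 (adjusted p = 0.987), or 0.20 under median-of-ratios scaling. Both calls were kept in every other setting tried with all hearts or without 1 of them. With only the 5 hearts without *Xist* the sizes were similar, 0.68 and -0.80, and adjusted p was 0.0506 and 0.0583.

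*Ppargc1b*, on chromosome 18, encodes PGC-1β, the closest relative of PGC-1α. Its E18.5d hearts held 14.2, 15.9 and 15.4 FPKM, its P1d hearts 17.0, 13.3 and 19.5 FPKM and its P7d hearts 18.8, 19.8 and 22.1 FPKM. The P1d hearts covered the whole range of the E18.5d hearts and part of that of the P7d hearts, whereas E18.5d and P7d hearts did not overlap. Only P7d against E18.5d passed the test, with a rise of 0.39 ± 0.12, 1.33-fold (adjusted p = 0.0250). That call was lost in 6 of 19 alternatives, at equal column sums with 0.35 (adjusted p = 0.135), and in the 5 hearts without *Xist* the change was 0.22 (adjusted p = 0.647). P7d against P1d gave 0.28 ± 0.12 (adjusted p = 0.0895) and passed under median-of-ratios scaling with 0.41 (adjusted p = 0.0256).

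*Esrra* (chr19:6910977-6921813, minus strand) encodes ERRα, a main partner of PGC-1 at mitochondrial genes. It was second in level at every stage, with 21.3, 23.1 and 20.6 FPKM in E18.5d hearts, 25.5, 24.8 and 23.6 FPKM in P1d hearts and 25.4, 24.9 and 24.4 FPKM in P7d hearts. All 6 postnatal hearts lay above all E18.5d hearts, by a small margin. The rise was 0.18 ± 0.061 at P1d (adjusted p = 0.0376) and 0.20 ± 0.061 at P7d (adjusted p = 0.0249), 1.14-fold and 1.15-fold. Both depended on the scaling. With columns brought to equal sums they became 0.012 (adjusted p = 0.935) and 0.15 (adjusted p = 0.254). Under median-of-ratios scaling and quantile normalization both calls were kept. Over the 19 alternatives the changes ran from 0.012 to 0.25 at P1d and from 0.15 to 0.40 at P7d. The P1d call was lost in 11 of 19 alternatives and the P7d call in 5 of 19. In the 5 hearts without *Xist* the changes were 0.090 and 0.13, neither past the threshold. The exons of *Esrra* share 73 bases with *Trmt112* on the opposite strand, 1.66% of their length, and the library kit marks no strand.

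*Esrrb* (chr12:86361117-86521628, plus strand) encodes ERRβ, known from stem cells and placenta. Its levels were 2.34, 2.90 and 2.70 FPKM in E18.5d hearts, 1.95, 2.50 and 3.48 FPKM in P1d hearts and 4.21, 5.40 and 3.90 FPKM in P7d hearts. Each P7d heart was above each of the 6 earlier hearts, which overlapped among themselves. *Esrrb* rose 1.70-fold to P7d from either earlier stage, by 0.59 ± 0.16 from E18.5d (adjusted p = 0.0133) and by 0.61 ± 0.16 from P1d (adjusted p = 0.0131). Both calls were lost without P7d replicate 2, the highest heart (0.47 and 0.49, adjusted p = 0.0544 and 0.0528), and the second also with *Xist* as a covariate (adjusted p = 0.0535). With only the 5 hearts lacking *Xist*, the changes were 0.42 and 0.54, with adjusted p = 0.475 and 0.276.

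*Esrrg* (chr1:187608791-188214885, plus strand) encodes ERRγ, the ERR known for the switch to oxidative metabolism in the perinatal heart. Levels were 11.1, 11.3 and 11.5 FPKM in E18.5d hearts, 11.9, 9.52 and 10.3 FPKM in P1d hearts and 11.6, 10.7 and 11.4 FPKM in P7d hearts. The hearts of the 3 stages overlapped. No comparison passed the test, with -0.096 ± 0.080 at P1d against E18.5d (adjusted p = 0.352), 0.082 ± 0.080 at P7d against P1d (adjusted p = 0.431) and -0.014 ± 0.080 at P7d against E18.5d (adjusted p = 0.901). The last change had the opposite sign under median-of-ratios scaling, at 0.18 (adjusted p = 0.0843).

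*Rxra* (chr2:27676440-27762957, plus strand) encodes RXRα, the general partner of PPARs in the heart. It stood at 15.1, 14.4 and 13.8 FPKM in E18.5d hearts, at 18.3, 21.9 and 16.2 FPKM in P1d hearts and at 13.8, 13.9 and 12.8 FPKM in P7d hearts. The P1d hearts were the highest 3, and E18.5d and P7d hearts overlapped. *Rxra* rose by 0.35 ± 0.098 at P1d (adjusted p = 0.0164) and fell by 0.44 ± 0.098 from P1d to P7d (adjusted p = 0.00576). The fall was kept in every other setting tried with all hearts or without 1 of them. The rise was lost at equal column sums, with 0.19 (adjusted p = 0.120), and P1d replicate 2, the highest *Rxra* heart, also had the largest column sum. It was also lost without E18.5d replicate 3 (adjusted p = 0.0553) and with *Xist* as a covariate (adjusted p = 0.0754). Leaving out the hearts with *Xist*, the changes were 0.35 and -0.41, with adjusted p = 0.277 and 0.247. P7d against E18.5d gave -0.093 ± 0.098 (adjusted p = 0.458) and 0.11 under median-of-ratios scaling.

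*Rxrg* (chr1:167598384-167639623, plus strand) encodes RXRγ, an RXR found in striated muscle and brain. The E18.5d hearts were at 0.43, 0.47 and 0.34 FPKM, the P1d hearts at 1.17, 0.94 and 0.99 FPKM and the P7d hearts at 9.12, 9.73 and 7.66 FPKM. The 3 stages did not overlap at any point. These values correspond to an estimated 22, 35 and 22 fragments in E18.5d hearts, 67, 51 and 59 in P1d hearts and 650, 811 and 687 in P7d hearts. Mean FPKM was 2.50-fold higher at P1d than at E18.5d, a log2 change of 0.52 ± 0.11 (adjusted p = 0.00372). It was 8.55-fold higher at P7d than at P1d, with 2.27 ± 0.11 (adjusted p = 2.98e-06). P7d against E18.5d gave 2.79 ± 0.11 (adjusted p = 2.56e-07). All 3 calls were kept in each such setting in which *Rxrg* was tested, among them the fit of all genes with no filter on level. In the 5 hearts without *Xist* the P7d changes were 2.78 against E18.5d (adjusted p = 0.0194) and 2.32 against P1d (adjusted p = 0.0227), whereas P1d against E18.5d gave 0.47 (adjusted p = 0.166).

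**Figure D2:**
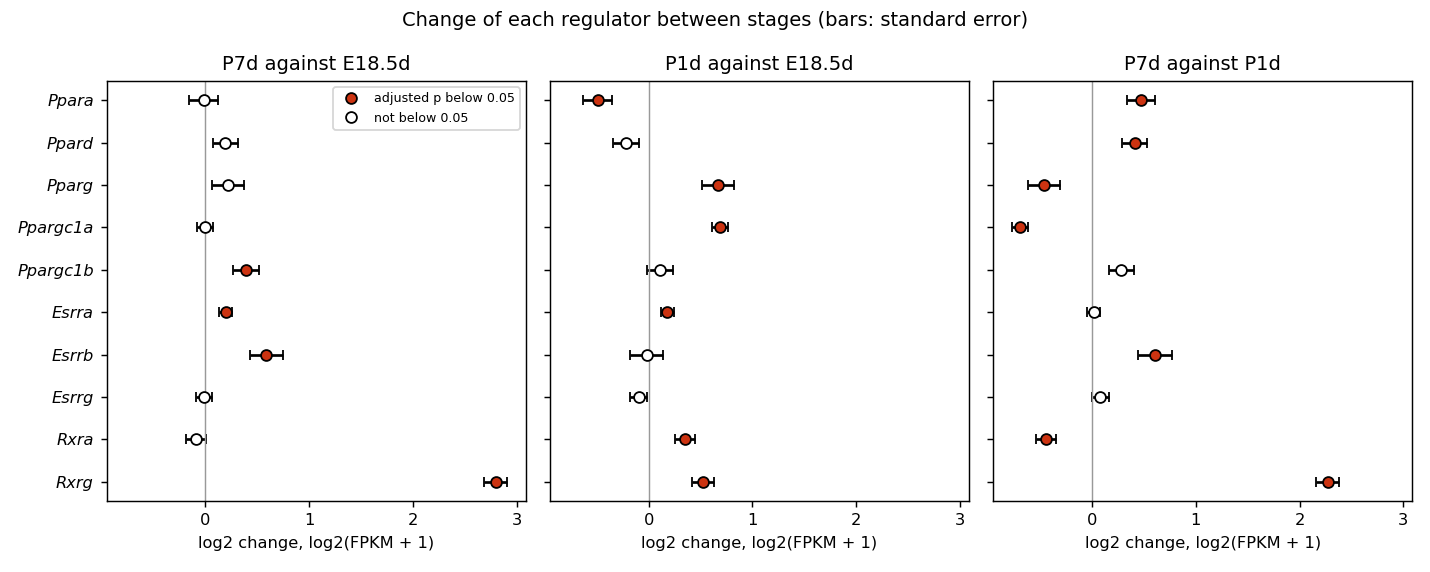
Log2 change of each regulator (x axis, log2(FPKM + 1) scale) in the 3 comparisons. Points are limma estimates from 3 hearts per stage, bars the standard error, and filled points have an adjusted p below 0.05. The changes of *Rxrg* to P7d (2.79 and 2.27) exceed those of the other 9 genes.

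The order of levels between the genes was read per stage. *Ppargc1a* and *Esrra* came first and second at each stage, and did not overlap each other. *Ppargc1b* and *Rxra*, which followed, overlapped at E18.5d and P1d and not at P7d. *Ppara* and *Esrrg* overlapped at E18.5d and P7d, at 11.6 and 11.3 FPKM and at 11.4 and 11.2 FPKM in the mean, whereas at P1d each heart had less *Ppara* (mean 7.98 FPKM) than any had *Esrrg* (mean 10.6 FPKM). *Rxrg* moved from the last place at E18.5d and P1d to the 7th at P7d, above *Esrrb*, *Ppard* and *Pparg*, with no overlap with *Esrrb* below it or *Esrrg* above it.

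Within families, shares of the summed FPKM do not depend on how a heart's column was scaled. *Rxrg* made 1.62% ± 0.21 (SD, n = 3) of the RXR sum in E18.5d hearts, 3.06% ± 0.55 in P1d hearts and 25.2% ± 1.7 in P7d hearts. *Rxra* made 56.6% ± 2.5, 54.8% ± 1.6 and 38.6% ± 0.80 of it, and *Rxrb*, the third RXR gene, the remainder. The RXR sum was 25.5 ± 0.96 FPKM in E18.5d hearts, 34.2 ± 4.5 FPKM in P1d hearts and 35.0 ± 2.2 FPKM in P7d hearts. The share of *Rxra* was lower in each P7d heart than in any earlier heart (exact two-sided permutation p = 0.1 against either stage, the smallest that 3 hearts against 3 allow, and 0.171 adjusted over 12 share tests).

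In the PPAR family the mean share of *Ppara* was 63.2% ± 4.4 in E18.5d hearts, 48.5% ± 9.5 in P1d hearts and 58.7% ± 1.7 in P7d hearts. *Pparg* took 16.2% ± 1.8, 32.8% ± 9.3 and 18.5% ± 1.3. In P1d replicate 1, *Pparg* (42.7%) exceeded *Ppara* (39.0%), which no other heart showed. The share of *Ppara* was 14.7 points lower at P1d than at E18.5d with no overlap (exact permutation p = 0.1, adjusted 0.171), and P1d and P7d hearts overlapped.

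*Ppargc1a* made 50.7% ± 3.8 of the PGC-1 sum before birth, 67.4% ± 5.5 at P1d and 49.9% ± 2.3 at P7d, where the sum includes the related *Pprc1*. The 3 P1d shares lay above all others (exact permutation p = 0.1 against either stage, adjusted 0.171). *Ppargc1b* made 25.6% ± 2.4, 22.8% ± 4.3 and 33.6% ± 1.9. Among the ERR genes, *Esrra* made 60.8% ± 1.5, 65.1% ± 2.1 and 61.3% ± 0.49, and *Esrrg* 31.8% ± 1.4, 27.9% ± 2.2 and 27.6% ± 1.4. The share of *Esrrg* was lower in every postnatal heart than in any E18.5d heart (exact permutation p = 0.1 for each stage, adjusted 0.171), beside a level that passed no test.

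**Figure D3:**
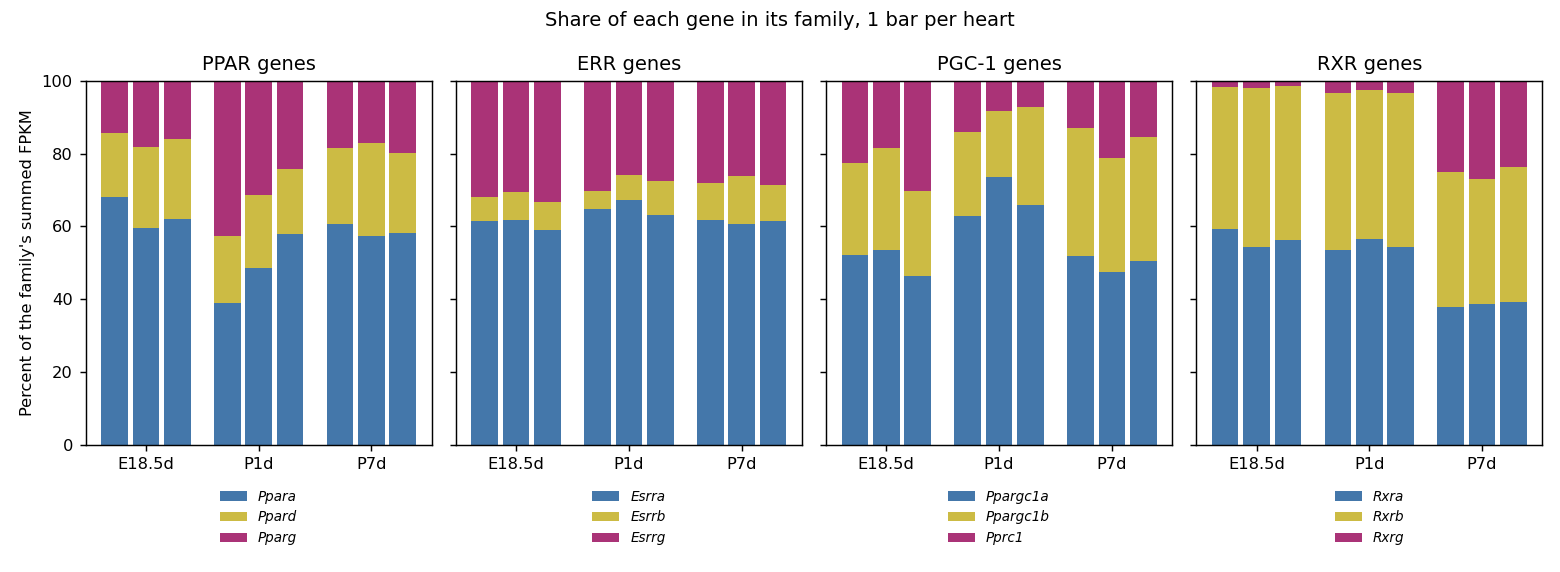
Share of each gene in the summed FPKM of its family (y axis, percent), 1 bar per heart, grouped by stage (x axis). *Rxrg* makes 1.62% of the RXR sum at E18.5d and 25.2% at P7d in the mean, and *Ppargc1a* takes 67.4% of the PGC-1 sum at P1d.

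Known target genes of the receptors were examined as 2 lists. Like the list of partners below, they were chosen with earlier results of these data known. Their counts therefore describe the lists and are not an independent test. Of 32 PPAR target genes, 32 rose and 0 fell at P7d against E18.5d, beside 12.5% and 36.9% of all genes, with a median log2 change of 1.44 where the median of all genes was -0.17. At P1d against E18.5d 31 rose, beside 18.4% of all genes, with a median of 1.46, and the exception, singled out after its values were seen, was *Acadm*, a beta-oxidation dehydrogenase, at 0.060. *Pdk4*, a kinase that inhibits pyruvate dehydrogenase, rose from 11.2 to 12.1 FPKM in the E18.5d hearts to 108 to 176 FPKM in the P1d hearts (3.47, adjusted p = 9.03e-07). *Angptl4*, an inhibitor of lipoprotein lipase, rose by 3.13 (adjusted p = 5.17e-06). For both genes E18.5d and P1d hearts did not overlap. Leaving out the hearts with *Xist*, 21 of 32 PPAR targets were called higher at P7d against E18.5d. In the same P1d hearts *Ppara* was lower than at E18.5d by 0.49 and *Pparg* and *Rxra* were higher by 0.67 and 0.35.

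Between P1d and P7d the PPAR target genes parted, with 8 higher, 10 lower and a median of 0.023, beside 15.5% of all genes higher and 28.6% lower, so that the share that fell was near that of all genes. *Ucp3*, a mitochondrial uncoupling protein of muscle, rose further, from 6.16 to 9.30 FPKM to 20.0 to 26.7 FPKM (1.54, adjusted p = 7.5e-05). *Plin5*, a lipid droplet coat protein, rose by 0.64 (adjusted p = 0.0108) and *Ucp2*, a relative of *Ucp3*, by 0.49 (adjusted p = 0.00405). *Acot1* and *Acot2*, acyl-CoA thioesterases, fell by 0.94 and 0.55 (adjusted p = 3.04e-05 and 0.000554), and *Pnpla2*, the triglyceride lipase ATGL, by 0.65 (adjusted p = 0.0133). With *Xist* as a covariate *Plin5* and *Pnpla2* no longer passed (adjusted p = 0.0737 and 0.0720). Under median-of-ratios scaling the split was 13 higher and 5 lower, beside 3194 higher and 2471 lower of the 13618 genes tested. *Cidea* and *Fabp4* on this list are also expressed in fat cells. The summed fat cell markers were higher at P1d and P7d than at E18.5d, though not every marker was, as given above. *Cidea* itself made most of the brown fat sum. The part of these genes and of fat cells in the counts was not tested.

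The 20 ERR and PGC-1 target genes moved in both directions. At P7d against E18.5d 6 rose, 3 fell and 11 did not pass the test, with a median of 0.054. The share called was close to the 49.4% of all genes, of which 12.5% were higher and 36.9% lower. *Ckmt2*, the mitochondrial creatine kinase of muscle, rose from 82.2 to 94.7 FPKM to 281 to 304 FPKM (1.70, adjusted p = 3.94e-07). *Mb*, myoglobin, rose 2.92-fold (1.55, adjusted p = 8.21e-07) and *Mfn2*, a mitochondrial fusion protein, 1.49-fold (0.57, adjusted p = 0.00011). The 3 that fell were *Tfb1m*, a mitochondrial rRNA methyltransferase, by 0.54 (adjusted p = 0.00686), *Cycs*, cytochrome c, by 0.33 (adjusted p = 0.0199) and *Ckm*, the cytosolic creatine kinase, by 0.29 (adjusted p = 0.00311). The last 2 of these were no longer past the threshold under median-of-ratios scaling. There 12 genes of the list rose and 1 fell, beside 3159 higher and 2545 lower of the 13618 genes tested.

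At P1d, when *Ppargc1a* was highest, 8 ERR and PGC-1 target genes were above E18.5d and 4 below, beside 18.4% and 27.6% of all genes. *Mb*, *Ckmt2* and *Slc25a4*, the muscle ADP/ATP carrier, rose by 0.57, 0.51 and 0.45 (adjusted p = 0.000292, 0.000504 and 0.000235). *Vegfa*, the vascular growth factor, fell by 0.83 (adjusted p = 1.36e-05), *Cycs* by 0.73 (adjusted p = 0.000334) and *Tfb1m* by 0.61 (adjusted p = 0.00401). From P1d to P7d 7 rose and 3 fell, beside 15.5% and 28.6% of all genes. *Ckmt2*, *Mb* and *Vegfa* rose by 1.19, 0.98 and 0.96 (adjusted p = 9.3e-06, 2.34e-05 and 1.31e-05). *Atp5b*, a subunit of ATP synthase, *Slc25a4* and *Sdhb*, of succinate dehydrogenase, fell by 0.48, 0.37 and 0.27 (adjusted p = 0.0014, 0.000849 and 0.0147), but these falls depended on the scaling. Under quantile normalization *Slc25a4* turned to 0.0043 and the other two no longer passed, *Atp5b* at -0.23 (adjusted p = 0.0770) and *Sdhb* at -0.13 (adjusted p = 0.104). *Sdhb* was also lost at equal column sums (-0.14, adjusted p = 0.247), under median of ratios (-0.14, adjusted p = 0.170), with *Xist* as a covariate (adjusted p = 0.102) and without P7d replicate 3 (adjusted p = 0.0556).

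**Figure D4:**
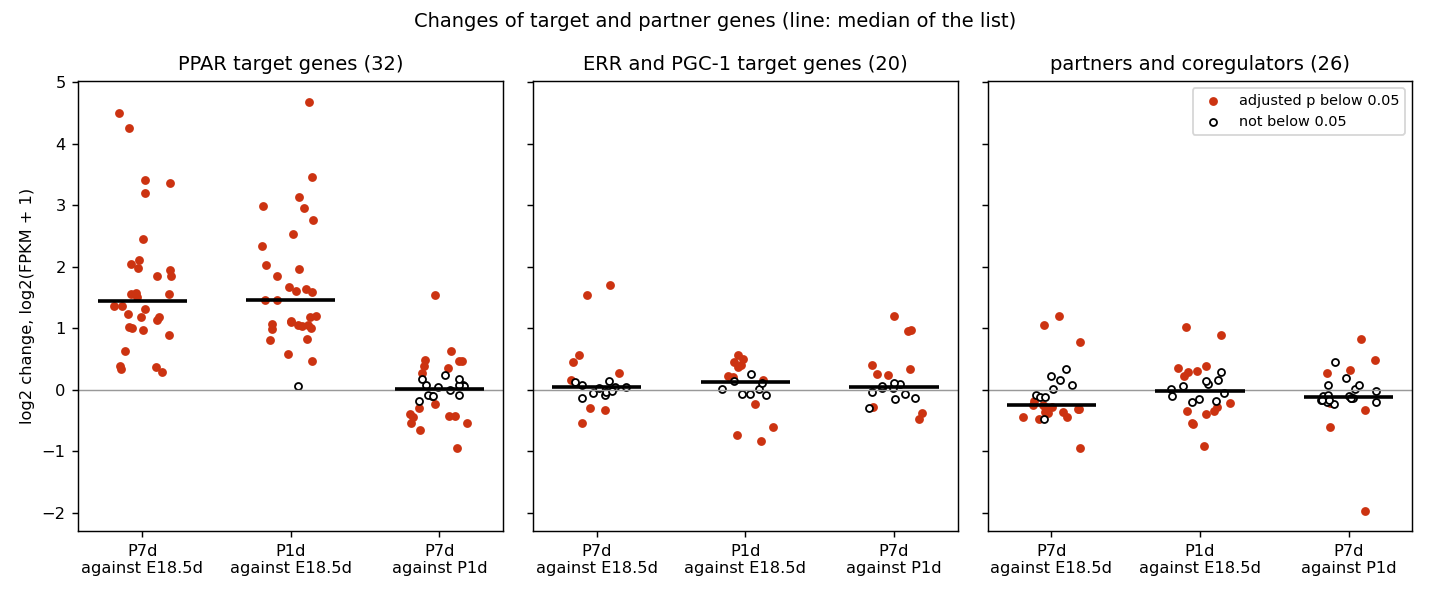
Log2 change (y axis, log2(FPKM + 1) scale) of each PPAR target, ERR and PGC-1 target and partner gene in the 3 comparisons (x axis), from 3 hearts per stage. Filled points have an adjusted p below 0.05 and lines are medians of the lists. All 32 PPAR targets lie above 0 at P7d against E18.5d, where the ERR and PGC-1 targets have a median of 0.054.

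Of 26 partners and coregulators of these receptors, 3 rose and 14 fell at P7d against E18.5d, beside 12.5% and 36.9% of all genes. This split followed the scaling. Under median-of-ratios scaling 8 rose and 3 fell, beside 3159 higher and 2545 lower of the 13618 genes tested. Those that rose included *Lpin1*, a coactivator of PPARα with PGC-1α, by 1.21 (adjusted p = 1.7e-05), and *Perm1*, a muscle protein induced by PGC-1 and ERR, by 1.05 (adjusted p = 3.18e-06). *Perm1* stood at 20.0 to 20.5 FPKM in E18.5d hearts, 22.9 to 25.9 FPKM in P1d hearts and 40.9 to 45.5 FPKM in P7d hearts, so that most of its rise came after P1d (0.82, adjusted p = 2.68e-05). *Lpin1* had risen by 0.89 at P1d (adjusted p = 0.000117). *Tbl1x*, a corepressor component, and *Nr0b2*, the orphan receptor SHP, fell by 0.47 and 0.44 at P7d against E18.5d (adjusted p = 0.000316 and 0.0147). *Nr0b2* was no longer past the threshold under median of ratios (-0.27, adjusted p = 0.123), under quantile normalization (-0.30, adjusted p = 0.105) and without P7d replicate 1 (adjusted p = 0.0528).

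*Klf15*, a transcription factor that works with PPARα in the heart, differed between all stages. Its levels were 8.02 to 9.42 FPKM in E18.5d hearts, 12.5 to 23.4 FPKM in P1d hearts and 3.89 to 4.18 FPKM in P7d hearts, with no overlap between stages. It rose by 1.02 to P1d (adjusted p = 0.00194) and fell by 1.97 to P7d (adjusted p = 6.87e-05). Of the 26 genes, 7 rose and 8 fell at P1d against E18.5d, beside 18.4% and 27.6% of all genes, so that the share that fell was near that of all genes. *Rxrb* rose by 0.40 (adjusted p = 0.00721), while *Pprc1*, the third PGC-1 family gene, fell by 0.92 (adjusted p = 0.0296) and *Prkaa1*, a catalytic subunit of AMPK, by 0.56 (adjusted p = 0.000161). The *Pprc1* call was lost in 8 of 19 alternatives, among them the *Xist* covariate, with -0.50 (adjusted p = 0.216), and the change was -0.54 in the 5 hearts without *Xist* (adjusted p = 0.371). *Rxrb* was lost at equal column sums, with 0.24 (adjusted p = 0.104), and with *Xist* as a covariate, with 0.29 (adjusted p = 0.0650). From P1d to P7d 4 rose and 4 fell, a smaller share than the 44.2% of all genes called. Among those that fell were *Sirt1*, the deacetylase that acts on PGC-1α, by 0.61 (adjusted p = 0.00212) and the acetyltransferase *Crebbp* by 0.32 (adjusted p = 0.00381), of which *Crebbp* was lost at equal column sums, with -0.20 (adjusted p = 0.280).

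Genes with the most similar course over the 9 hearts were ranked by the root mean square difference of log2(FPKM + 1), each gene taken relative to its own mean. For *Rxrg* the nearest was *Trim72*, with a difference of 0.17 beside a spread of 1.22 for *Rxrg* itself, and a mean of 4.70, 6.27 and 40.6 FPKM at the 3 stages. *Itga7* and *Ankrd23* came next at 0.37 each. *Rnf103*, *Sgpl1* and *Usp3* were nearest to *Ppargc1a*, at 0.080 to 0.083 beside a spread of 0.33. The nearest genes were *Gmppb* for *Ppara*, *Sema3b* for *Ppard*, *Gm12295* for *Pparg*, *Cacnb2* for *Ppargc1b*, *Bace1* for *Esrra*, *Spryd7* for *Esrrb* and *Fis1* for *Rxra*. The difference was between 0.041 for *Bace1* and 0.10 for *Spryd7*.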

How the data were processed

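RNA-seq libraries of 9 whole mouse hearts were analysed, 3 at each of E18.5d, P1d and P7d, grouped by the stage in their labels. The authors deposited FPKM rounded to 2 decimals for 48820 genes, with a column per heart. Total RNA was extracted with Trizol and libraries were made with the NEBNext Ultra kit, which marks no strand. The submitters' processing notes name STAR and the builds GRCm38 and mm10, whereas the counting tool, its settings and the annotation are not given in the sources used here. Genes were located in GENCODE M21 (GRCm38), where 8 of the 10 members had the same identifier version.

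Values were transformed to log2(FPKM + 1). Genes whose mean reached 1 FPKM, 13618 in all, entered 1 fit of all stages with eBayes and a trend (limma 3.58.1, R 4.3.3). P-values were adjusted by Benjamini-Hochberg over all genes tested, with a threshold of 0.05. Tested on simulated data of 13618 genes, with 200 changed by 1 on the log2 scale at P7d, the fit recovered 172 in either comparison with P7d, with 9 false calls against E18.5d and 16 against P1d. FPKM are not counts, and each heart's depth was estimated from the steps between low values, of which 92.2% to 94.6% were whole fragments within 0.2 (chance gives 40%). Family shares were compared with exact two-sided permutation tests in Python 3.11.15 (scipy 1.17.1). Figures were drawn with matplotlib 3.10.9. P-values measure the spread between hearts that the labels call biological replicates.

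The members and gene lists were chosen with earlier results of these data known. Named are all 10 members. In each other list and comparison, genes were drawn from the 3 largest increases and decreases past the threshold without overlapping hearts. Not every gene so drawn is given in the text for each comparison. For each member past the threshold, the 3 genes (mean of at least 5 FPKM) with the most similar course were ranked. Promoter windows and motifs were read from RefSeq (GRCm38.p6). The alternatives were another pseudocount, other filters, 3 other scalings, no trend, only the stages compared, a replicate block, a covariate for *Xist* and leaving out each heart. Leaving out the 4 hearts with *Xist* from the limma fit was chosen after seeing the data. Values of 2 listed genes are not reported here singly, though the list counts include them.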

Additional observations from a re-analysis of the deposited data

How the results depend on the processing

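The calls of *Rxrg* in all 3 comparisons, of *Ppargc1a* at P1d against either stage, of *Pparg* at P1d against E18.5d and of *Rxra* at P7d against P1d were kept in every other setting, of those with all hearts or with 1 left out, in which the gene was tested. The number of the 10 regulators called higher at P7d against E18.5d, 4, became 2 with a mean of at least 5 FPKM, which drops *Ppard*, *Pparg*, *Esrrb* and *Rxrg* from the test, and 2 at equal column sums. For P1d against E18.5d, 5 became 3 under these and with the *Xist* covariate, and the 1 lower became 2 and 0 at equal sums and with the covariate. For P7d against P1d, 4 became 1 with the stricter filter and with the covariate. Leaving out single hearts gave 1 to 4 higher at P7d against E18.5d, 3 to 5 higher and 0 to 1 lower at P1d against E18.5d, and 1 to 4 higher and 2 to 3 lower at P7d against P1d. The counts fell most without P7d replicate 2, to 1 higher in both comparisons with P7d, and P1d against E18.5d fell to 3 without E18.5d replicate 3. The higher count at P7d against E18.5d was 2 without E18.5d replicate 1 or 3, that at P7d against P1d was 2 without P1d replicate 1, and the lower count at P1d was 0 without E18.5d replicate 1. In the 5 hearts without *Xist*, 1 member was called higher in either comparison with P7d and 0 at P1d against E18.5d, and 0 were called lower. The cause of these shifts was not tested, and the part of the smaller number of hearts or genes was not separated.

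Scaling moved the counts over all genes and over the lists. Over all genes tested, 1706 were higher and 5025 lower at P7d against E18.5d, but 3159 and 2545 under median of ratios and 2889 and 2937 under quantile normalization. At P1d against E18.5d 2505 and 3755 became 1175 and 4694 at equal sums, 3215 and 3031 under median of ratios and 3206 and 3066 under quantile normalization, and at P7d against P1d 2112 and 3901 became 2200 and 1729, 3194 and 2471, and 2879 and 2787. Partners at P7d against E18.5d (3 higher, 14 lower) were 8 and 3 under median of ratios, 7 and 4 under quantile normalization, 7 lower at equal sums and 5 higher with only these stages. At P1d (7 and 8) they were 2 higher at equal sums, 3 and 3 with the covariate, and 5 and 4 lower under median of ratios and quantile normalization, and at P7d against P1d 2 fell at equal sums. PPAR targets at P7d against P1d (8 and 10) were 13 and 5 under median of ratios, 14 and 5 under quantile normalization, 4 lower at equal sums and 3 lower with the covariate. ERR and PGC-1 targets at P7d against E18.5d (6 and 3) were 12 and 1 and then 14 and 1, at P1d 4 higher at equal sums and 5 with the covariate, and at P7d against P1d 12 and 0 under quantile normalization. Single hearts left out gave 9 to 14 partners lower at P7d against E18.5d, 5 to 8 lower at P1d and 3 to 7 lower at P7d against P1d, 5 to 11 PPAR targets lower at P7d against P1d and 5 to 9 ERR and PGC-1 targets higher at P1d. The 9 came without replicate 2 or 3 of either stage, the 5 partners without E18.5d replicate 2 or 3, the 7 without P1d replicate 3, the 5 PPAR targets without P1d replicate 1 or 2 or P7d replicate 3, and the 5 ERR and PGC-1 targets without E18.5d replicate 3. In the 5 hearts, the PPAR targets were 21 higher at P7d against E18.5d and 0 and 0 at P7d against P1d, ERR and PGC-1 targets 2 and 0, 0 and 1, and 2 and 0 in the 3 comparisons, and the partners 0 in each. Over all 13656 genes that fit called 103 higher and 120 lower, 246 and 576, and 75 and 109.

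Signs turned in members that had not passed the test. At P7d against E18.5d, under median of ratios and quantile normalization, *Ppara* was at 0.18 and 0.14, *Ppargc1a* at 0.20 and 0.15, *Esrrg* at 0.18 and 0.14 and *Rxra* at 0.11 and 0.057. With single hearts left out, *Ppara* ran from -0.083 to 0.086, *Ppargc1a* from -0.063 to 0.054 and *Esrrg* from -0.035 to 0.016. In the 5 hearts *Ppara* was at 0.029, *Ppard* at -0.081 and *Esrrg* at 0.025. At P1d against E18.5d *Ppargc1b* was at -0.054 at equal sums and ran from -0.0097 to 0.25 with single hearts left out, and *Esrrb* was at 0.037 and 0.085 under median of ratios and quantile normalization and ran from -0.18 to 0.12. *Esrra* at P7d against P1d ran from -0.015 to 0.041, and *Slc25a4* there at 0.0043 under quantile normalization. Without the hearts with *Xist*, the share of *Ppara* differed by 1.08 points at P7d against E18.5d, that of *Esrrg* by 0.21 points at P7d against P1d and by -2.31 points at P7d against E18.5d, and that of *Rxra* by 0.50 points at P1d against E18.5d. Leaving out single hearts, the share of *Esrrg* at P7d against P1d ran from -1.27 to 0.90 points and that of *Ppargc1a* at P7d against E18.5d from -2.91 to 0.68 points, and was 0.50 and 0.49 points without P7d replicate 2.

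The labels give same-numbered hearts only a shared number, and their deviations from the stage means correlated by -0.055 to 0.11. With 3 hearts per stage, such low correlations cannot exclude a shared litter or batch. With a replicate block the members called were 4 higher at P7d against E18.5d, 5 higher and 1 lower at P1d against E18.5d, and 4 higher and 3 lower at P7d against P1d, the counts found without it. Of the genes named, only *Pprc1* at P1d against E18.5d lost its call with the block (adjusted p = 0.0557). Groups of 3 hearts and 22 to 35 *Rxrg* fragments per E18.5d heart limit the precision of its fold change.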
